A study of Drosophila melanogaster with 13 samples.

Results

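The vacuolar ATPase (V-ATPase) genes of Drosophila melanogaster were followed in MN1-Ib, an identified motoneuron of the larval ventral nerve cord. Members were all genes whose FlyBase symbol begins with Vha, of which 33 are annotated. Of these, 32 matched a row of the table of 17753 genes, and the gene of subunit C, Vha44, was not analysed here. By sector, 12 of the 32 encode subunits of the catalytic V1 sector, 18 encode subunits of the membrane V0 sector and 2 encode accessory proteins of the Ac45 kind.

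RNA came from 13 pools of 4 to 8 neurons drawn into a patch pipette, each from 1 or 2 larvae of instar 3. All animals carried MN1-Ib-GAL4, a driver active in this neuron, and UAS-mCD8:GFP, which made the cell visible. There were 3 libraries labelled Shal RNAi (RNA interference against the Kv4 potassium channel gene Shal), 4 labelled Notch RNAi (against N, the Notch receptor gene), 3 labelled Notch+Shal RNAi, and 3 Control libraries with the driver and GFP alone. The RNAi was therefore directed at the labelled neuron and not at the larva as a whole, and where else the driver is active was not examined. Since the labels do not say whether a larva gave cells to several pools of a group, p-values rest on the spread between pools only. Levels are given as CPM, the counts of a gene scaled to a common library total, and normalised CPM also carries a scaling factor for library composition (the TMM factor).

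The V-ATPase is a rotary proton pump. The V1 sector hydrolyses ATP on the cytoplasmic side, and the V0 sector carries protons through the membrane with a ring of c subunits turning against subunit a. In neurons it acidifies synaptic vesicles, which drives transmitter loading, as well as endosomes and lysosomes, and in fly tissues its activity is known to be needed for normal Notch trafficking and signalling. Several fly subunits are encoded by more than 1 gene, so that a cell can build pumps of different composition.

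Neither RNAi target was lower throughout the libraries carrying its label, and the groups below go by label. Shal stood at 53.3, 112 and 135 CPM in libraries labelled Shal RNAi, 50.9, 62.1, 54.5 and 20.8 CPM with Notch RNAi and 77.2, 37.8 and 20.5 CPM with Notch+Shal RNAi, against 5.098, 94.97 and 45.4 CPM in Control. N stood at 9.004, 29.9 and 1.29 CPM in Shal RNAi, 23.6, 19.4, 20.9 and 294 with Notch RNAi and 16.3, 20.4 and 329 with Notch+Shal RNAi, against 31.5, 28.8 and 229 in Control. Neither difference passed the test described below in any comparison, and Shal was higher, not lower, in the libraries labelled Shal RNAi (log2 fold change 1.72, SE 0.83, edgeR adjusted p = 0.424). A direction given for an RNAi group is a direction for the libraries so labelled.

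Libraries held between 3783100 counts (Notch RNAi 3) and 9319116 counts (Control 2), and 3 counts in a library corresponded to 0.322 to 0.793 CPM, a limit that covers counting error only. The 3 libraries labelled Shal RNAi stood apart in composition. Mitochondrially encoded RNA took 13.5%, 5.36% and 11.5% of their counts, against 2.38%, 2.54% and 2.60% in Control. Their TMM factors were 0.568, 1.04 and 0.620, against 1.08, 1.13 and 1.25 in Control, and they detected 7758 ± 427 genes against 9138 ± 119 in Control (SD, n = 3 each). The part of these differences in the results was not tested directly. Alternative fits that bear on them used other scaling factors (RLE and TMMwsp) or left out the mitochondrial genes. A further fit left out Shal RNAi 1 and 3, the libraries with the highest mitochondrial shares. That fit kept Shal RNAi 2 as the only library of its group, which itself held 5.36% mitochondrial RNA. VGlut, the vesicular glutamate transporter that marks motoneurons, was present in every library (1748, 1682 and 1282 CPM in Shal RNAi, 1247, 1841, 1420.0 and 401 with Notch RNAi and 1128, 2841 and 689.9 with Notch+Shal RNAi, against 1478, 926 and 476 in Control). The 8 neuron markers were all detected and summed to 3510 to 4379 CPM in Shal RNAi, 2293 to 4119 CPM with Notch RNAi and 1493 to 8174 CPM with Notch+Shal RNAi, against 2031 to 3519 CPM in Control. Transcripts of other tissues were also present. The 9 fat body markers summed to 1676 CPM (Notch+Shal RNAi 2) to 20375 CPM (Notch+Shal RNAi 3), the 8 muscle markers to 184.5 to 3195 CPM and the 9 hemocyte markers to 55.2 to 1947 CPM, with a count for every one of these markers in at least 1 library. Of 7 glia markers, which summed to 164 to 1036 CPM, alrm had no count, repo reached 2.44 CPM and wrapper 2.89 CPM at most, while moody reached 76.6 CPM and Eaat1 61.9 CPM (both in Shal RNAi 3), Gs2 755 CPM (Notch RNAi 4) and nrv2 745 CPM. The 4 markers of cholinergic and GABA neurons summed to 0.148 to 62.7 CPM and the 4 of neuroblasts to at most 6.67 CPM. In such pools, fewer cells of a type and less RNA per cell cannot be told apart.

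MN1-Ib libraries held RNA for every subunit of the pump that was analysed. Summed over the 32 genes, V-ATPase RNA made up 0.700 ± 0.167% of counts in Shal RNAi (SD, n = 3), 0.689 ± 0.187% with Notch RNAi (n = 4) and 0.800 ± 0.284% with Notch+Shal RNAi (n = 3), against 0.895 ± 0.214% in Control (n = 3). The lowest value was 0.460% (Notch RNAi 1) and the highest 1.13% (Control 2), and all 4 groups overlapped. The V1 genes summed to 0.842 to 2.29 times the V0 genes by library on the CPM scale. This ratio averaged 1.37 ± 0.341 in Shal RNAi, 1.13 ± 0.217 with Notch RNAi and 1.67 ± 0.615 with Notch+Shal RNAi, against 1.32 ± 0.287 in Control, and it was highest in Notch+Shal RNAi 2 and lowest in Notch RNAi 1. In plain CPM the V0 genes summed to 2482 to 2863 CPM in Shal RNAi, 2247 to 3355 CPM with Notch RNAi and 2274 to 2799 CPM with Notch+Shal RNAi, against 3123 to 3809 CPM in Control. Shal RNAi and Notch+Shal RNAi lay below Control without overlap in this sum, and the V1 sums of all groups overlapped. No test was made of the sum. Much of it came from Vha16-1, at 267 to 661 CPM in Shal RNAi and 528 to 665 CPM with Notch+Shal RNAi, against 885 to 1528 CPM in Control. VhaM9.7-a, also a large part of the sum, overlapped between these groups and Control. The sum without Vha16-1 was not computed, so the difference is not shown for the V0 genes as a set. With TMM scaling the V0 sums were 4371, 2618 and 4621 normalised CPM in Shal RNAi and 2438, 2225 and 2379 with Notch+Shal RNAi, against 2908, 3381 and 2497 in Control. On that scale Shal RNAi 1 and 3 lay above Control, while Notch+Shal RNAi stayed below it. Only 16 of the 32 genes had a count in every library, and 15 stayed below 30 CPM throughout.

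**Figure D1:**
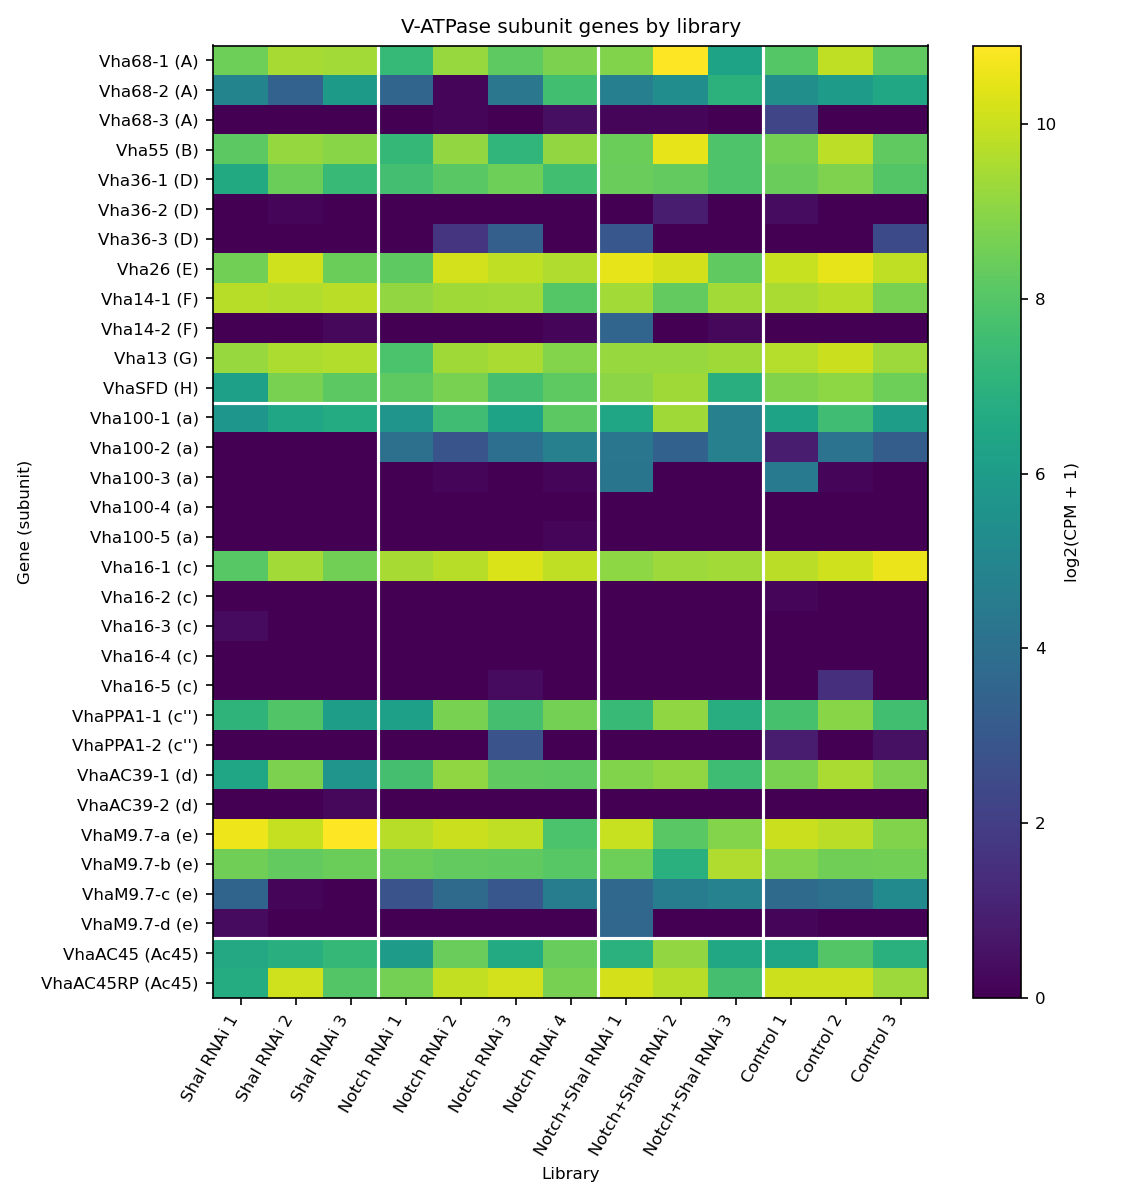
Heat map of the 32 V-ATPase genes (rows, subunit in brackets, white lines between V1, V0 and accessory genes) in 13 libraries (columns, by group), with colour giving log2(CPM + 1). In most subunits 1 gene is bright in all libraries while its paralogues are dark, and Vha100-2 is dark in all 3 libraries labelled Shal RNAi.

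Where a subunit has several genes, 1 of them supplied nearly all of the RNA in 5 cases. Shares were computed from CPM per kilobase of exon and averaged over 13 libraries. Vha36-1 held 99.5 ± 0.728% of subunit D (SD, n = 13), Vha14-1 99.9 ± 0.171% of subunit F, Vha16-1 99.9 ± 0.212% of the ring subunit c, VhaPPA1-1 99.5 ± 1.5% of the ring subunit c'' and VhaAC39-1 99.96 ± 0.148% of subunit d, which joins the ring to the central stalk. The lowest value in any library was 94.6%, for VhaPPA1-1 in Notch RNAi 3. Subunits B, E, G and H, encoded by Vha55, Vha26, Vha13 and VhaSFD, have no second gene among the members.

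In the other 4 cases the mean share of a second gene was at least 10%. Vha68-1 held 86.8 ± 16.9% of the catalytic subunit A and Vha68-2 held 13.1 ± 16.9%. Vha100-1 held 86.4 ± 14.9% of subunit a and Vha100-2 held 10.6 ± 14%. VhaM9.7-a held 76.5 ± 12.3% of the small V0 subunit e and VhaM9.7-b held 21.7 ± 11.1%. Among the accessory proteins, VhaAC45RP, annotated as related to Ac45, held 79.1 ± 13.4% and VhaAC45 held 20.9 ± 13.4%. Dividing by coding length, omitting the division by length, or leaving out any 1 library moved none of the leading genes' mean shares by more than 1 SD. Without Notch+Shal RNAi 3, however, the mean share was 9.04% for Vha68-2 and 7.34% for Vha100-2, and without Notch RNAi 1 it was 9.56% for Vha100-2, so that the 10% mark rests on single libraries for these genes.

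By library, the share of Vha68-1 was 92.7, 98.7 and 91.9% in Shal RNAi, 93.8, 99.96, 94.1 and 69.1 with Notch RNAi and 94.8, 98.02 and 38.7 with Notch+Shal RNAi, against 85.4, 93.9 and 77.7 in Control. Vha68-2 thus outweighed Vha68-1 only in Notch+Shal RNAi 3, where it held 61.3%, and its next highest share was 30.8%, in Notch RNAi 4. The share of Vha100-1 was 100.0, 100.0 and 100.0% in Shal RNAi, 76.7, 96.7, 83.8 and 91.4 with Notch RNAi and 69.2, 98.6 and 50.1 with Notch+Shal RNAi, against 76.8, 91.5 and 88.7 in Control. It was complete in all 3 libraries labelled Shal RNAi, and Vha100-2 drew level with it in Notch+Shal RNAi 3, at 49.9%. The share of VhaM9.7-a was 87.5, 84.4 and 90.3% in Shal RNAi, 80.4, 84.4, 83.8 and 56.2 with Notch RNAi and 81.1, 75.3 and 49.5 with Notch+Shal RNAi, against 78.4, 79.4 and 64.3 in Control. Here too Notch+Shal RNAi 3 was lowest, and Shal RNAi 3 highest. In the accessory pair the share of VhaAC45RP was 57.5, 91.8 and 66.3% in Shal RNAi, 88.2, 77.5, 93.1 and 59.9 with Notch RNAi and 92.03, 64.9 and 73.2 with Notch+Shal RNAi, against 93.8, 83.7 and 86.6 in Control, so that it led in all 13 libraries. Notch+Shal RNAi 3, which had the lowest shares of the leading genes of subunits A, a and e, also had the lowest sum of neuron markers (1493 CPM) and the highest sums of hemocyte (1947 CPM) and fat body (20375 CPM) markers; the part of these transcripts in its shares was not tested.

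**Figure D2:**
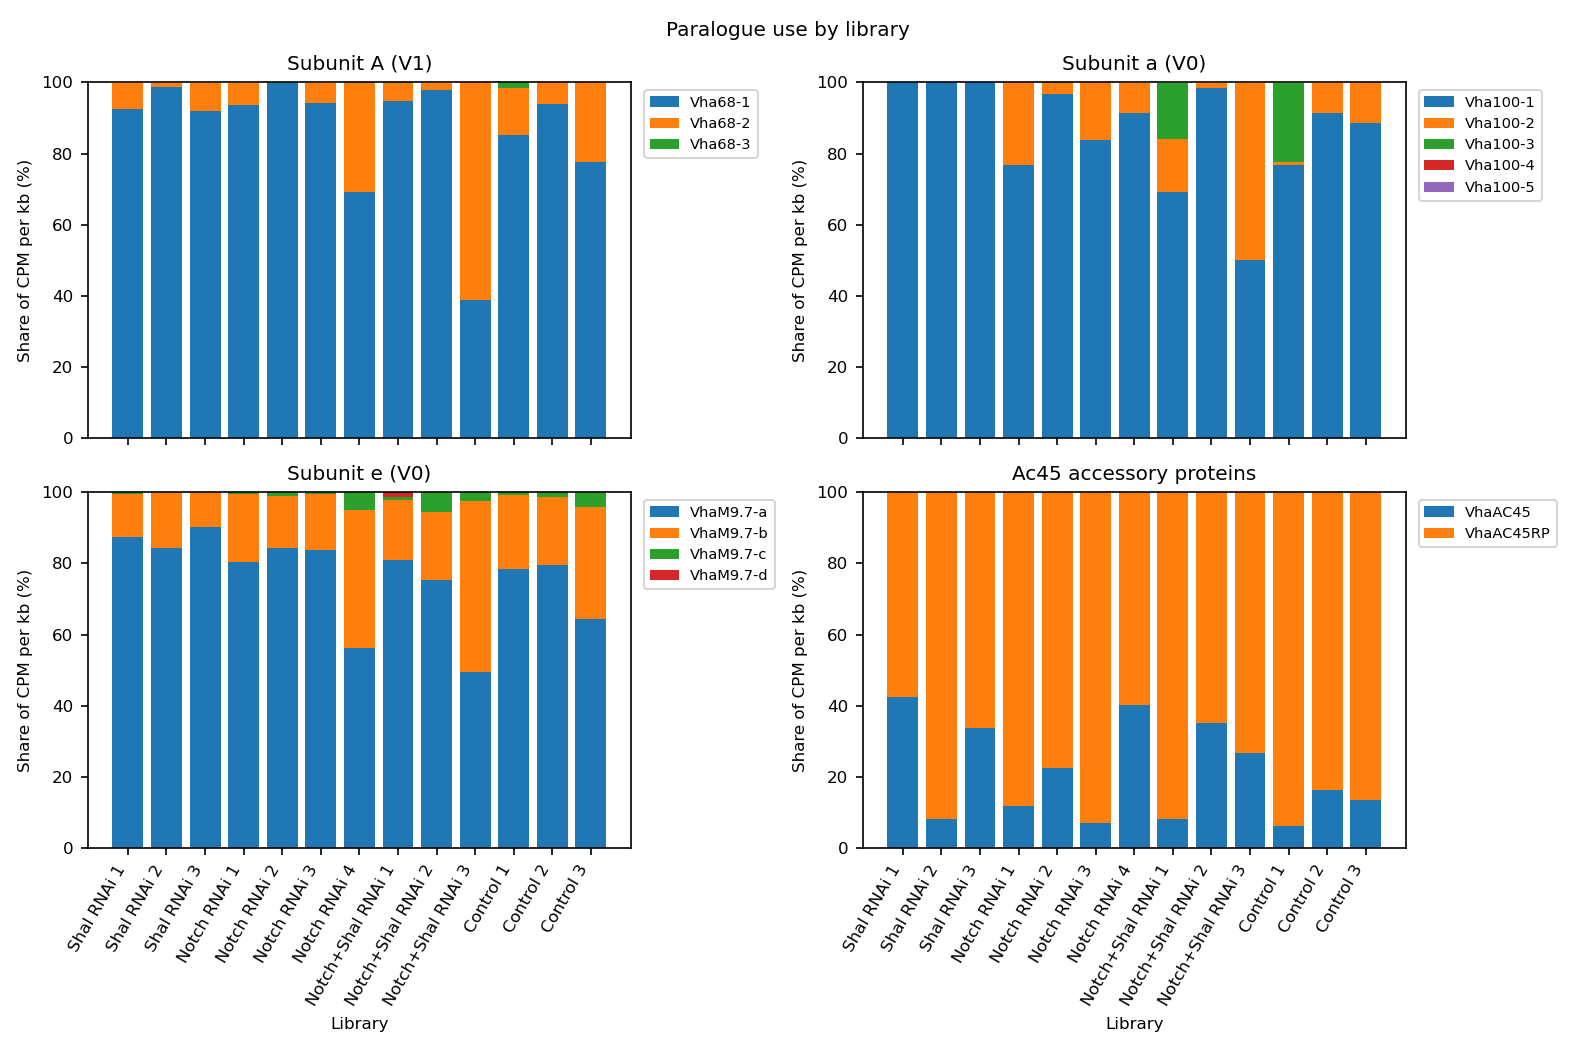
Stacked bars give the share (%) of each paralogue in its subunit's CPM per kilobase of exon for subunits A, a and e and the Ac45 accessory proteins, 1 bar per library. Vha68-1, Vha100-1, VhaM9.7-a and VhaAC45RP fill most of the bars, with Notch+Shal RNAi 3 lowest at 38.7% for Vha68-1, 50.1% for Vha100-1 and 49.5% for VhaM9.7-a.

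The remaining paralogues were rare and patchy. Vha100-4 and Vha16-4 had no count in any library, which over all 13 libraries allows up to 0.0331 CPM (3 counts). Altogether 7 genes stayed below 1 CPM in every library, namely these and Vha36-2, Vha100-5, Vha16-2, Vha16-3 and VhaAC39-2. Vha100-3 had 17.7 CPM (Notch+Shal RNAi 1) and 20.5 CPM (Control 1) in a pair of libraries where it made up 15.9% and 22.4% of subunit a, but at most 0.127 CPM elsewhere. Notch+Shal RNAi 1 was also the library with the highest Vha14-2 (10.7 CPM) and VhaM9.7-d (10.98). Of the others, Vha36-3 reached 8.99 CPM and VhaPPA1-2 5.82 CPM, each in Notch RNAi 3, while Vha68-3 reached 3.89 CPM in Control 1 and Vha16-5 1.82 CPM in Control 2. VhaM9.7-c, a further gene of subunit e, was low but broad, with 10.4, 0.139 and 0 CPM in Shal RNAi, 5.98, 12.8, 6.87 and 23.9 with Notch RNAi and 12.02, 23.7 and 27.3 with Notch+Shal RNAi, against 12.6, 15.5 and 35.1 in Control.

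Some paralogues lie side by side, in BDGP6.54 coordinates. The 3 subunit A genes share a stretch of chromosome arm 2L, with Vha68-2 at 12974322 to 12978607, Vha68-3 at 12978786 to 12981293, and Vha68-1 at 13000770 to 13004107 on the other strand. Vha100-4 (18386841 to 18389805) neighbours Vha100-2 (18390323 to 18399169) on 3R, and VhaPPA1-2 (14899606 to 14900277) neighbours VhaPPA1-1 (14902330 to 14904061) on the same arm. Vha16-3 (11473291 to 11473972) and Vha16-2 (11474958 to 11475552) are neighbours on 3L. In mean level per length this last pair was near 0, at 0.0277 and 0.0173 CPM per kb. The pairs on 3R differed, with Vha100-4 at 0 beside Vha100-2 at 3.36 CPM per kb, and VhaPPA1-2 at a mean of 0.804 CPM per kb beside VhaPPA1-1 at 185 CPM per kb. Exons of Vha100-1 (3R, 29131193 to 29137980) overlap those of Alg13 on the opposite strand, which averaged 48.6 CPM. Also on opposite strands, VhaPPA1-2 overlaps CG3817, which averaged 48.3 CPM, and Vha100-4 overlaps cona, which averaged 2.60 CPM. Vha16-2 and Vha100-5 overlap antisense RNAs of at most 0.161 CPM. The strand setting of the counting is not given in the sources used here.

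Set per length of exon, the 17 genes followed by library covered more than 2 orders of magnitude. VhaM9.7-a was highest at 1264 ± 676 CPM per kb (SD, n = 13), followed by Vha14-1 at 970.1 ± 309.8, Vha13 at 699 ± 207 and VhaAC45RP at 431 ± 239 CPM per kb. A middle group held VhaM9.7-b, Vha26, Vha16-1, Vha36-1, Vha68-1, VhaAC39-1, VhaPPA1-1 and Vha55, between 299.99 ± 121 and 177 ± 129 CPM per kb. VhaSFD followed at 125 ± 58.8, VhaAC45 at 92.4 ± 71.4 and Vha100-1 at 45.5 ± 51.1 CPM per kb. Neighbours in this order mostly did not differ beyond their spread: VhaM9.7-a was above Vha14-1 in 9 of 13 libraries, and Vha16-1 above Vha36-1 in 5 of 13. Clearer steps lay between Vha13 and VhaAC45RP (12 of 13 libraries) and between VhaAC45 and Vha100-1 (13 of 13). The leading gene of subunit a was thus the lowest of the leading subunit genes in mean level per length. These are levels of RNA and say nothing of how many copies of a subunit sit in a pump.

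**Figure D3:**
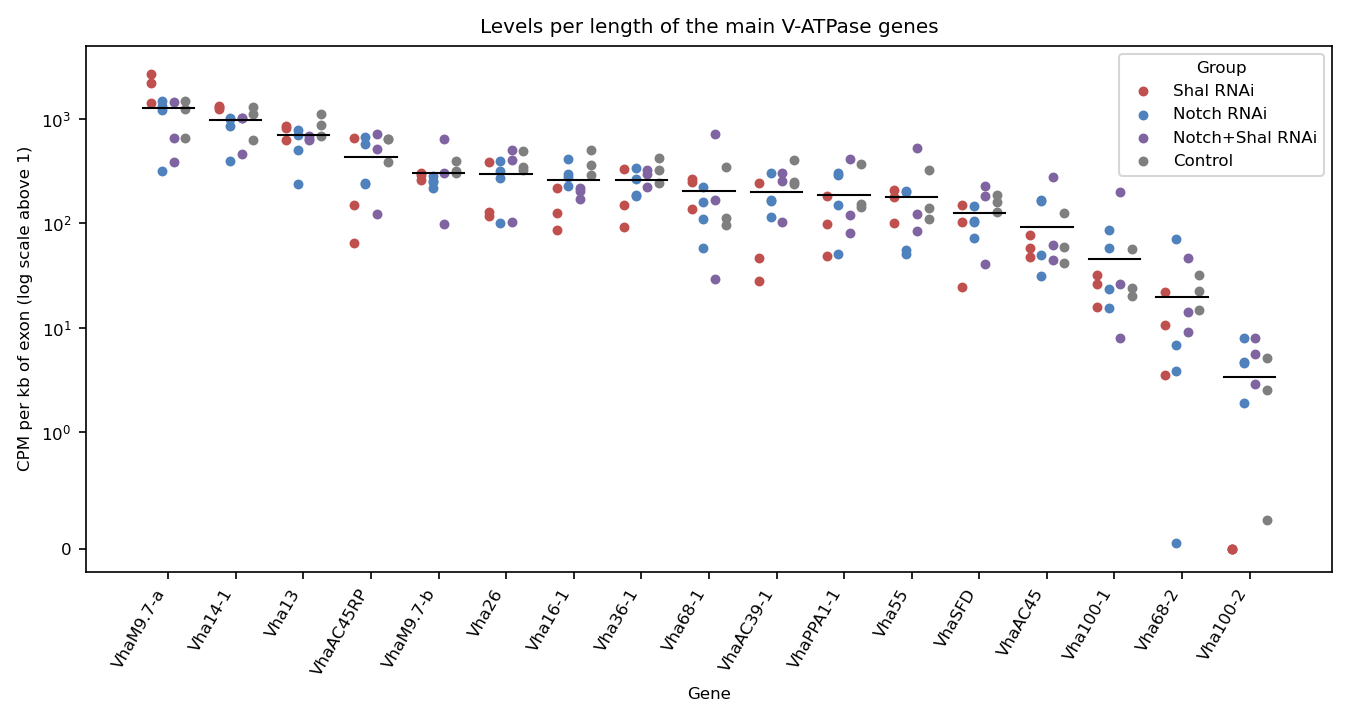
Points give CPM per kilobase of exon in each library (log scale above 1, linear below), coloured by group, and horizontal lines the mean over 13 libraries, for 17 genes in order of mean. Levels run from a mean of 1264 CPM per kb for VhaM9.7-a to 3.36 CPM per kb for Vha100-2, and libraries of every group are spread widely within each gene.

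Within V1, the catalytic subunit A gene Vha68-1 had 362, 709 and 662 CPM in libraries labelled Shal RNAi, 156, 588, 296 and 426 CPM with Notch RNAi and 449.9, 1896 and 79.1 CPM with Notch+Shal RNAi, against 258, 932 and 298 CPM in Control. Its range within Notch+Shal RNAi, from 79.1 to 1896 CPM, spanned all other libraries. Vha68-2 had 29.6, 9.73 and 60.01 CPM in Shal RNAi, 10.6, 0.127, 19.03 and 196 with Notch RNAi and 25.2, 39.3 and 129 with Notch+Shal RNAi, against 41.2, 62.5 and 88.3 in Control, with its highest value in Notch RNAi 4 and its lowest in Notch RNAi 2. Vha55, which encodes the nucleotide-binding subunit B, had 282, 575 and 495 CPM in libraries labelled Shal RNAi, 153, 561, 142 and 559 CPM with Notch RNAi and 345, 1461 and 236 CPM with Notch+Shal RNAi, against 393, 905 and 305 CPM in Control. The groups overlapped for these 3 genes.

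Vha36-1, of the central stalk subunit D, had 98.8, 347 and 160.3 CPM in libraries labelled Shal RNAi, 199, 279, 356 and 192 CPM with Notch RNAi and 342, 312 and 236 CPM with Notch+Shal RNAi, against 340.5, 447 and 256 CPM in Control. Vha14-1, of the stalk subunit F, had 853, 806 and 878 CPM in Shal RNAi, 563, 649.5, 664 and 257 with Notch RNAi and 672, 306 and 674 with Notch+Shal RNAi, against 727, 849 and 412 in Control. Vha14-1 was even across Shal RNAi, at 806 to 878 CPM, while it was lowest in Notch RNAi 4 and Notch+Shal RNAi 2. Subunits E and G form the peripheral stalks, and of their genes Vha26 had 376, 1119.6 and 345 CPM in libraries labelled Shal RNAi, 292, 1151, 923 and 786 CPM with Notch RNAi and 1450.4, 1164 and 297 CPM with Notch+Shal RNAi, against 1011, 1426 and 934 CPM in Control. Vha13 had 589, 761 and 799.5 CPM in Shal RNAi, 223, 653, 732 and 469 with Notch RNAi and 598, 586 and 649 with Notch+Shal RNAi, against 826, 1049.7 and 638 in Control. VhaSFD, of the regulatory subunit H, had 69.95, 422 and 287 CPM in libraries labelled Shal RNAi, 296, 415, 204 and 289 CPM with Notch RNAi and 514, 649 and 116 CPM with Notch+Shal RNAi, against 454, 526 and 362 CPM in Control, with its lowest values in Shal RNAi 1 and Notch+Shal RNAi 3.

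Within V0, Vha100-1 encodes the subunit a form known from fly neurons for its role at synapses, and it had 52.4, 86.5 and 105 CPM in libraries labelled Shal RNAi, 51.00, 189, 77.98 and 283 CPM with Notch RNAi and 86.2, 657 and 26.2 CPM with Notch+Shal RNAi, against 78.7, 185 and 66.3 CPM in Control. It was at most 105 CPM in the libraries labelled Shal RNAi and above 650 CPM in Notch+Shal RNAi 2 alone. Its paralogue Vha100-2 had 0, 0 and 0 CPM in libraries labelled Shal RNAi, 15.1, 6.09, 14.8 and 25.9 CPM with Notch RNAi and 18.3, 9.38 and 25.5 CPM with Notch+Shal RNAi, against 0.805, 16.6 and 8.28 CPM in Control. It was thus without a count in all 3 Shal RNAi libraries, in which 3 counts would have been 0.693, 0.417 and 0.554 CPM. It had a count in each of the other 10 libraries, with only 6 counts in Control 1. The share of all genes without a count in the 3 Shal RNAi libraries was not computed. The c ring gene Vha16-1 had 267, 661 and 384 CPM in libraries labelled Shal RNAi, 701, 848, 1261 and 916 CPM with Notch RNAi and 528, 624 and 665 CPM with Notch+Shal RNAi, against 885, 1111 and 1528 CPM in Control. All Control libraries lay above all Shal RNAi and all Notch+Shal RNAi libraries for this gene.

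VhaPPA1-1, the c'' member of the ring, had 134, 244 and 65.9 CPM in libraries labelled Shal RNAi, 69.2, 411, 203 and 394 CPM with Notch RNAi and 162, 550.2 and 109 CPM with Notch+Shal RNAi, against 208, 499 and 195 CPM in Control. VhaAC39-1, of subunit d, had 82.9, 430.3 and 50.04 CPM in Shal RNAi, 207, 542, 299.8 and 295 with Notch RNAi and 457, 539.7 and 182 with Notch+Shal RNAi, against 420.2, 727 and 445 in Control, and the lowest values were those of Shal RNAi 1 and 3. For subunit e, VhaM9.7-a had 1567, 995 and 1909 CPM in libraries labelled Shal RNAi, 851, 1036, 939 and 224 CPM with Notch RNAi and 1021, 275 and 465 CPM with Notch+Shal RNAi, against 1045, 884 and 459 CPM in Control, with its 2 highest values in Shal RNAi 1 and 3 and the lowest in Notch RNAi 4. VhaM9.7-b had 368, 314 and 349 CPM in Shal RNAi, 347, 310.1, 300.0 and 264 with Notch RNAi and 365, 120.2 and 774 with Notch+Shal RNAi, against 476, 369 and 386 in Control, a narrower range apart from its extremes in Notch+Shal RNAi 2 and 3. Among the accessory genes, VhaAC45 had 95.4, 117 and 154 CPM in libraries labelled Shal RNAi, 63.4, 335, 100.4 and 325 CPM with Notch RNAi and 124, 558 and 90.4 CPM with Notch+Shal RNAi, against 84.1, 251 and 119 CPM in Control. VhaAC45RP had 107, 1095 and 252 CPM in Shal RNAi, 394, 960.4, 1125 and 402 with Notch RNAi and 1187, 856 and 205 with Notch+Shal RNAi, against 1063, 1070.0 and 637 in Control, and here Shal RNAi 1 and Notch+Shal RNAi 3 were lowest.

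Single libraries set many of the extremes. Of the 17 genes given here by library, Notch+Shal RNAi 2 was the highest library for 6 (Vha68-1, Vha55, VhaSFD, Vha100-1, VhaPPA1-1 and VhaAC45), and Shal RNAi 1 was the lowest for 5, counting Vha100-2, which was at 0 in all 3 Shal RNAi libraries. Notch+Shal RNAi 2 also had the highest sum of neuron markers (8174 CPM) and the lowest of fat body markers (1676 CPM); their part in these levels was not tested.

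Differences between groups were tested with edgeR's quasi-likelihood test on the counts of all 13 libraries, with Benjamini-Hochberg adjustment at 0.05 over the 8908 genes that passed a low-count filter. Of the 32 V-ATPase genes, 19 passed this filter and the other 13, the rare paralogues apart from Vha36-3, were not tested. The labels imply 6 comparisons, 3 of RNAi groups with Control, 2 of Notch+Shal RNAi with each single RNAi, and their interaction. None of the 19 genes passed in any of them, beside a background of 0% of all genes in each. Each single-gene difference below is therefore within what this test allows at the spread of these libraries, whose median biological coefficient of variation was 1.17.

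In libraries labelled Shal RNAi, VhaM9.7-a and Vha14-1 were higher than in Control and Vha16-1 was lower, by about 1 log2 unit or more for VhaM9.7-a and Vha14-1, without passing the test. VhaM9.7-a had 2759.8, 954 and 3081 normalised CPM in Shal RNAi, against 965, 784 and 367 in Control. Shal RNAi 1 and 3 were far above Control, while Shal RNAi 2 lay among the Control values. The log2 fold change was 1.68 (SE 0.70), with an adjusted p of 0.359 in edgeR and an exact two-sided permutation p of 0.2. Without Shal RNAi 1 and 3, which leaves Shal RNAi 2 as the only library of its group, the log2 fold change was 0.46. Vha14-1 averaged 1231 ± 399 normalised CPM in Shal RNAi and 585 ± 225 in Control (SD, n = 3 each). Its libraries did not overlap on this scale, a property of 6.50% of all tested genes in this direction, but overlapped in plain CPM. The log2 fold change was 1.07 (SE 0.62), with an edgeR adjusted p of 0.499 and an exact permutation p of 0.1, the smallest that 3 against 3 libraries allow, and it was 0.43 without Shal RNAi 1 and 3.

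Vha16-1 averaged 574 ± 90.9 normalised CPM in Shal RNAi and 1008 ± 203 in Control. The groups did not overlap in CPM or in normalised CPM, which held for 11.3% of all tested genes in this direction on the normalised scale. The log2 fold change was -0.81 (SE 0.54), with an edgeR adjusted p of 0.547 and an exact permutation p of 0.1. It lay between -0.95 and -0.54 under all alternative settings. Without Shal RNAi 1 and 3 it was -0.65.

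Vha100-2 had 0 counts in each Shal RNAi library, against a mean of 8.57 CPM in Control. In normalised CPM it lay below Control without overlap, as did 11.3% of all tested genes. The share of all genes at 0 in every Shal RNAi library was not computed. Set against 3 counts per library, the mean of Vha100-2 was at least 15.5-fold lower in Shal RNAi in plain CPM and at least 8.80-fold lower with TMM scaling. These bounds compare means and cover counting error only. They rest largely on Control 2, without which they were 8.19-fold and 4.39-fold. Control 1, at 0.805 CPM, was itself close to the limit of 0.693 CPM in Shal RNAi 1. In normalised CPM Control 1 was at 0.744, below the mean limit of 0.838 in Shal RNAi. The edgeR test gave an unadjusted p of 0.0548 and an adjusted p of 0.435, and limma voom an adjusted p of 0.444. DESeq2, run as an alternative, called it (adjusted p = 0.00673), the only V-ATPase gene it called in this comparison, where it called 309 genes in all against 0 in edgeR. The Shal RNAi libraries also detected fewer genes, 7758 ± 427 against 9138 ± 119 in Control. Notch RNAi 1 and 2 detected 7579 and 7858 genes and held Vha100-2 at 15.1 and 6.09 CPM. The part of the number of genes detected in this result was not tested.

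Over the 19 genes tested, 8 lay above 0 and 11 below in Shal RNAi against Control, beside 42.8% and 56.9% of all genes, and their median log2 fold change of -0.24 was close to the median of all genes, -0.27. At an unadjusted p under 0.05, 1 was higher (VhaM9.7-a, beside 8.04% of all genes) and 0 were lower (beside 3.72%). Those of lowest p above 0 were VhaM9.7-a, Vha14-1 and Vha68-1, at 0.87 (SE 0.75) and an adjusted p of 0.633. Below 0 they were Vha100-2, VhaAC39-1 at -1.10 (SE 0.66) and an adjusted p of 0.507, and VhaM9.7-c at -2.18 (SE 1.44) and an adjusted p of 0.541. Without Shal RNAi 1 and 3 the log2 fold change of VhaAC39-1 was -0.15 and that of Vha68-1 0.66, while that of VhaM9.7-c was -6.89 and rested on the 1 count of Shal RNAi 2. In this comparison 6 of 8 neuron markers (median 0.84), 7 of 9 fat body markers (median 0.72), 3 of 4 tested glia markers (median 2.11), 5 of 8 muscle markers (median 0.13) and 4 of 9 hemocyte markers (median -0.08) lay above 0, and their part in these values was not tested. By sector, 4 of 9 V1 genes, 3 of 8 V0 genes and 1 of 2 accessory genes lay above 0. VhaM9.7-b shows how far the scaling matters here. In plain CPM all Shal RNAi libraries (313.9 to 368.5 CPM) lay below all Control libraries (369 to 476 CPM). The TMM-scaled log2 fold change of VhaM9.7-b was 0.48 (SE 0.65). VhaM9.7-c also lay below Control without overlap in plain CPM (0 to 10.4 against 12.6 to 35.1 CPM), but overlapped in normalised CPM. Shares of all genes without overlap were computed in normalised CPM only.

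**Figure D4:**
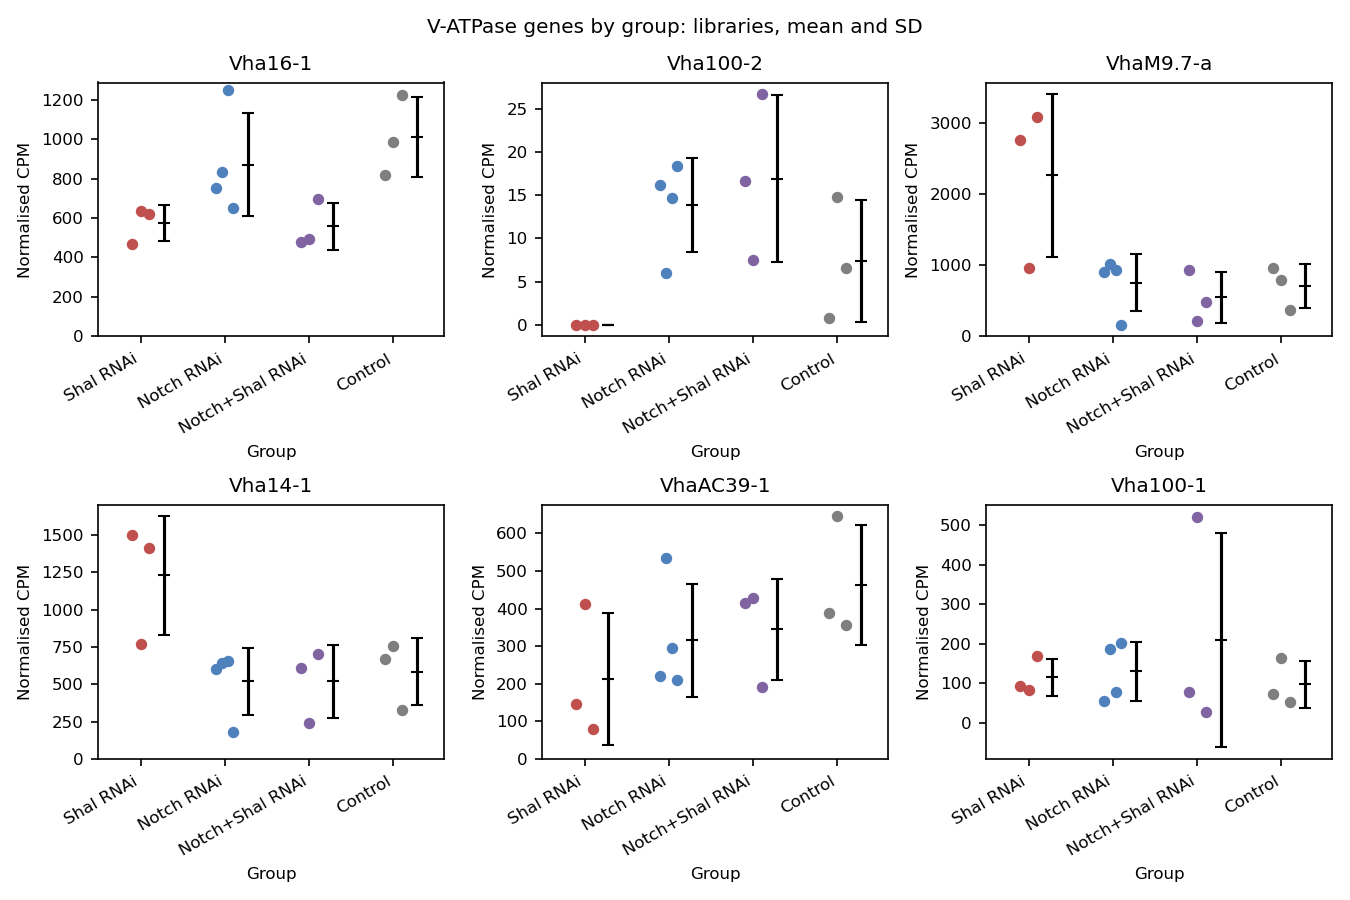
Normalised CPM of 6 V-ATPase genes by group, with 1 point per library and the group mean ± SD beside the points (3 libraries per group, 4 for Notch RNAi). Vha16-1 lies lower in Shal RNAi and Notch+Shal RNAi than in Control without overlap, Vha100-2 is at 0 in all Shal RNAi libraries, and VhaM9.7-a is high in 2 of 3 Shal RNAi libraries.

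In libraries labelled Notch RNAi, VhaM9.7-b was below Control without overlap in plain CPM, at 264 to 347 CPM in Notch RNAi against 369 to 476 CPM in Control. The share of all genes without overlap on that scale was not computed. With TMM scaling VhaM9.7-b overlapped, at 290.0 ± 76.05 normalised CPM in Notch RNAi (n = 4) and 359 ± 70.5 in Control (n = 3). Its log2 fold change was -0.31 (SE 0.61). All 19 genes overlapped between these groups in normalised CPM, beside 1.25% of all genes not overlapping with Notch RNAi higher and 2.47% with it lower. Vha13 was at -0.61 (SE 0.54), with 484 ± 235 normalised CPM in Notch RNAi (n = 4) and 735 ± 212 in Control (n = 3). The next in this direction were VhaAC39-1 at -0.56 (SE 0.60) and Vha55 at -0.58 (SE 0.63). Above 0 were Vha100-2 at 0.85 (SE 1.03), VhaAC45 at 0.47 (SE 0.69) and Vha100-1 at 0.43 (SE 0.77). The edgeR adjusted p of all 6 was 0.999, and without Control 2 the value of Vha55 was 0.0555. In all, 5 of the 19 lay above 0 and 14 below (51.3% and 48.6% of all genes), with a median of -0.30 against 0.03 for all genes, and 0 had an unadjusted p under 0.05 in either direction, beside 1.91% of all genes higher and 2.42% lower. The V1 genes contributed 8 of the 14 below 0.

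In libraries labelled Notch+Shal RNAi, Vha16-1 was again lower than in Control. It had 481, 496 and 696 normalised CPM in Notch+Shal RNAi, against 818, 986 and 1222 in Control, without overlap, which held for 3.48% of all genes in this direction. The log2 fold change was -0.85 (SE 0.54) and did not pass (edgeR adjusted p = 1; exact permutation p = 0.1), with -1.05 to -0.70 over the alternative settings. The same 3 Control libraries serve both comparisons, so this value and that of Shal RNAi against Control share their Control side. In Notch RNAi the gene had 749.8, 835, 1246 and 650.4 normalised CPM, overlapping Control, and its log2 fold change was -0.22 (SE 0.50).

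Of the other genes in this comparison, Vha100-1 was at 1.13 (SE 0.82) and VhaAC45 at 0.72 (SE 0.73), each with an edgeR adjusted p of 1. Both values rest on Notch+Shal RNAi 2, without which they were -0.86 and -0.35. Vha100-2 was at 1.08 (SE 1.07), Vha13 at -0.38 (SE 0.58) and VhaAC39-1 at -0.42 (SE 0.65), with the same adjusted p. In all, 9 of 19 lay above 0 and 10 below (55.7% and 44.3% of all genes), the median was -0.08 against 0.11 for all genes, and 0 had an unadjusted p under 0.05, beside 2.71% of all genes higher and 1.58% lower. Marker lists of other tissues differed in the same comparison. All 8 muscle markers lay below 0, with sums of 184.5 to 947 CPM in Notch+Shal RNAi against 682 to 2643 CPM in Control, and 8 of 9 hemocyte markers lay above 0, with sums of 102 to 1947 CPM against 78.7 to 97.8 CPM. All 8 muscle markers also lay below 0 in Notch RNAi against Control (median -0.65). They did so too in Notch+Shal RNAi against Shal RNAi (-1.65) and against Notch RNAi (-0.85). In these 3 comparisons, in the same order, 6, 7 and 9 of 9 hemocyte markers lay above 0 (medians 0.73, 3.19 and 2.90). Of all genes, 48.6%, 39.9% and 44.1% lay below 0 there, and 51.3%, 59.8% and 55.8% above. The part of these markers in the V-ATPase values was not tested.

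**Figure D5:**
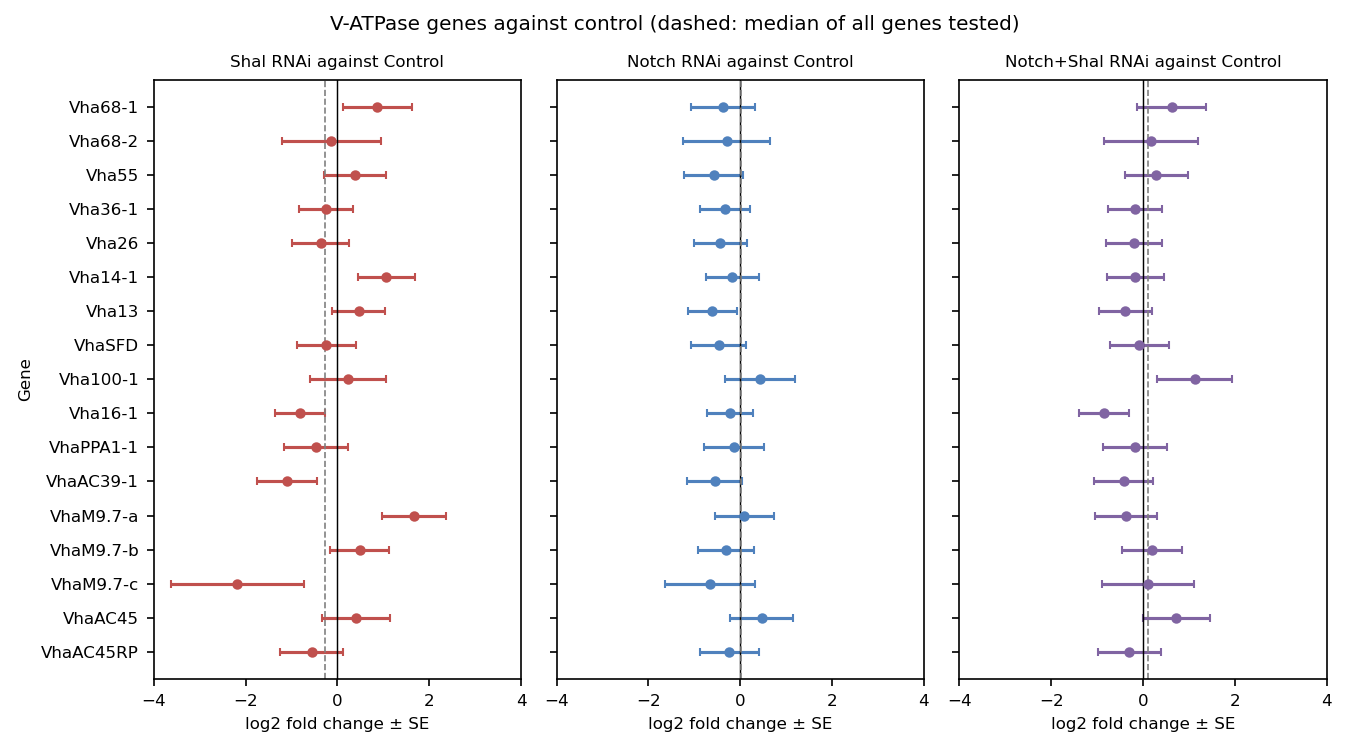
Log2 fold change ± SE of 17 V-ATPase genes in each RNAi group against Control from the edgeR fit, with the median of all 8908 genes as a dashed line; Vha36-3 and Vha100-2, which had 0 counts in a group, are left out. VhaM9.7-a and Vha14-1 lie farthest to the right in Shal RNAi (1.68 and 1.07), and Vha16-1 lies left of 0 in Shal RNAi and Notch+Shal RNAi (-0.81 and -0.85).

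Setting Notch+Shal RNAi against Shal RNAi asked what the addition of Notch RNAi went with. VhaM9.7-a was lower, with 545 ± 359 normalised CPM in Notch+Shal RNAi and 2265 ± 1147 in Shal RNAi (SD, n = 3 each). Its log2 fold change was -2.05 (SE 0.71), with an unadjusted p of 0.00747, an edgeR adjusted p of 0.285 and an exact permutation p of 0.1, and it was -0.85 without Shal RNAi 1 and 3. Vha14-1 and Vha13, 2 of the V1 stalk genes, were also lower without overlap in normalised CPM, at -1.24 (SE 0.62) with an adjusted p of 0.422 and -0.85 (SE 0.58) with an adjusted p of 0.532. Without Shal RNAi 1 and 3 the values were -0.62 for Vha14-1 and -0.41 for Vha13. All values without these libraries have Shal RNAi 2 as the only library of its group. Genes not overlapping in this direction made up 4.24% of all tested. In plain CPM, VhaM9.7-a and Vha13 overlapped.

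Vha100-2 went the other way. It had 18.3, 9.38 and 25.5 CPM in Notch+Shal RNAi, against 0 counts in every Shal RNAi library. Against 3 counts per library, its mean was at least 31.95-fold higher in plain CPM and at least 20.2-fold higher with TMM scaling. Its unadjusted p was 0.0137 and its edgeR adjusted p 0.321, while DESeq2 called it at an adjusted p of 6.56e-04. Genes not overlapping with Notch+Shal RNAi higher made up 7.45% of all tested. VhaM9.7-c was at 2.29 (SE 1.45) with an adjusted p of 0.505, and at 6.99 without Shal RNAi 1 and 3, again resting on 1 count. Vha36-3, the next in order, rests on 1 library, Notch+Shal RNAi 1. Altogether 12 of 19 lay above 0 and 7 below (59.8% and 39.9% of all genes), with a median of 0.16 against 0.38 for all genes, and at an unadjusted p under 0.05 there was 1 higher (5.56% of all genes) and 1 lower (6.70%).

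Notch+Shal RNAi against Notch RNAi gave no V-ATPase gene without overlap in normalised CPM, beside 1.13% of all genes with Notch+Shal RNAi higher and 0.786% with it lower. Vha68-1 was at 1.00 (SE 0.69), Vha55 at 0.87 (SE 0.63) and Vha100-1 at 0.69 (SE 0.75). All 3 turned below 0 without Notch+Shal RNAi 2, to -0.44, -0.17 and -1.29. Vha16-1 was at -0.64 (SE 0.51), with 558 ± 119.9 normalised CPM in Notch+Shal RNAi (n = 3) and 870.4 ± 262 in Notch RNAi (n = 4), and an exact permutation p of 0.114. In plain CPM its libraries did not overlap between these groups, and the share of all genes on that scale was not computed. VhaM9.7-a was at -0.46 (SE 0.64) and VhaAC45RP at -0.06 (SE 0.65), and every edgeR adjusted p was 1. At an unadjusted p under 0.05 there were 0 V-ATPase genes in either direction, beside 3.42% of all genes higher and 1.41% lower. Of the 19 genes, 15 lay above 0 and 4 below (55.8% and 44.1% of all genes), with a median of 0.23 against 0.12 for all genes. The 15 included all 9 V1 genes tested, among them Vha14-1 at 0.006 (SE 0.58) and Vha36-3 at 0.06 (SE 1.83). Summed over the 12 V1 genes, tested or not, the level was 4415 ± 1998 CPM in Notch+Shal RNAi libraries, against 3178 ± 990 CPM in Notch RNAi libraries. The groups overlapped in this sum, and its highest value, 6413 CPM, was in Notch+Shal RNAi 2.

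The interaction asks whether the difference between Notch+Shal RNAi and Notch RNAi was unlike that between Shal RNAi and Control. VhaM9.7-a gave -2.14 (SE 0.95), with an unadjusted p of 0.0327 and an edgeR adjusted p of 0.516. It was the only V-ATPase gene under an unadjusted 0.05, on the lower side, where 4.77% of all genes were, and 0 were on the higher side, beside 4.36% of all genes. Without Shal RNAi 1 and 3, with Shal RNAi 2 as the only library of its group, its value was -0.97. Vha14-1 gave -1.06 (SE 0.85) and Vha13 -0.24 (SE 0.79). VhaAC39-1 gave 1.24 (SE 0.89), VhaM9.7-c 2.94 (SE 1.76) and Vha100-2, which has a group at 0 counts, had an adjusted p of 0.575. Without Shal RNAi 1 and 3, Vha14-1 gave -0.46, Vha13 0.18, VhaAC39-1 0.26 and VhaM9.7-c 7.63. Above 0 were 15 of 19 genes and below 0 were 4 (58.9% and 41.1% of all genes), with a median of 0.46 against 0.40 for all genes. Vha16-1 gave 0.18 (SE 0.74), a value smaller than its SE. All of these comparisons draw on the same 13 libraries, so their values are not independent of each other.

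Genes that work with the pump gave no call in any comparison either. Among 6 tested genes of V-ATPase assembly and regulation, 5 lay above 0 in Shal RNAi against Control, beside 42.8% of all genes. Their median was 0.69 against -0.27 for all genes. Rbcn-3B, part of the rabconnectin-3 complex that promotes pump assembly, had 51.5, 92.9 and 124 CPM in Shal RNAi, 47.8, 41.97, 56.3 and 28.4 with Notch RNAi and 39.2, 139 and 0.161 with Notch+Shal RNAi, against 12.1, 47.4 and 36.9 in Control, and was at 2.18 (SE 0.91) in that comparison with an edgeR adjusted p of 0.369. In Notch+Shal RNAi against Shal RNAi 1 of the 6 lay above 0, beside 59.8% of all genes, with a median of -0.54 against 0.38. The libraries labelled Shal RNAi lay above Control without overlap for Rbcn-3B, as for 6.50% of all tested genes on the normalised scale, and Notch+Shal RNAi 3 was lowest. CG7071, the 7th gene of the list, had no count.

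Lysosomal genes summed to 1738 CPM on average in Shal RNAi, against 3242 CPM in Control, with overlap. Of 15 genes for lysosomal enzymes and membrane proteins, 4 lay above 0 and 11 below against Control (42.8% and 56.9% of all genes), with a median of -0.63 against -0.27 for all genes, and CtsL1, a cathepsin that degrades protein in the acid lumen, was at -1.45 (SE 0.65, edgeR adjusted p = 0.392). CtsL1 had 44.1, 151 and 21.8 CPM in Shal RNAi, 441, 299, 262 and 311 with Notch RNAi and 249, 349 and 163 with Notch+Shal RNAi, against 295, 184 and 357 in Control, with all Shal RNAi libraries below all Control libraries, as for 11.3% of all tested genes on the normalised scale. In Notch+Shal RNAi against Shal RNAi, 13 of the 15 lay above 0, with a median of 1.35, beside 59.8% and 0.38 for all genes. In Notch RNAi against Control 12 of 15 lay above 0 (median 0.23), beside 51.3% of all genes (median 0.03). In Notch+Shal RNAi against Control 9 of 15 did (median 0.39), beside 55.7% of all genes (median 0.11). The 15 genes summed to 1033 to 2938 CPM in Shal RNAi, 3961 to 4616 CPM with Notch RNAi and 3011 to 4045 CPM with Notch+Shal RNAi, against 2456 to 4064 CPM in Control.

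The other lists were mixed. Of all genes, 42.8% lay above 0 in Shal RNAi against Control, with a median of -0.27. Of 6 Ragulator and Rag GTPase genes, which link the lysosome to TOR, 4 lay above 0 in Shal RNAi against Control (median 0.50), and RagC-D was at -1.45 (SE 0.75, edgeR adjusted p = 0.455). Of 3 lysosomal and endosomal chloride and cation transport genes, 2 lay above 0 (median 0.00). VGlut, which uses the proton gradient to fill vesicles with glutamate, was at 1.39 (SE 0.66, edgeR adjusted p = 0.417) in Shal RNAi against Control, and VGAT, the other transporter tested, at -0.64 (SE 1.47, adjusted p = 0.860). The mitochondrial ATP synthase, a rotary enzyme of related design that works in the direction of synthesis, had 10 of 15 genes above 0 in Shal RNAi against Control (median 0.35), led by the mitochondrially encoded mt:ATPase6 at 3.23 (SE 0.71, edgeR adjusted p = 0.145). In the same comparison the V-ATPase genes had a median of -0.24, and in Notch+Shal RNAi against Shal RNAi the ATP synthase genes had a median of -0.65 against 0.16 for the V-ATPase genes.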

How the data were processed

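The authors deposited a table of raw read counts per gene, 1 column per library. Per the labels' protocols, polyadenylated RNA of aspirated cells was reverse-transcribed with template switching, amplified by PCR and sequenced as paired reads of 100 bases. Per the submitters' processing notes, STAR 2.7.0e, edgeR 3.26.7, limma 3.40.6 and R 3.6.1 were used with build BDGP6; what each tool did, whether counting used strand and how duplicates were handled was not given in the sources used here. Symbols and coordinates came from the BDGP6.54 annotation, matching 17626 of 17753 gene IDs.

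From the counts, CPM, CPM per kilobase of merged exon and TMM-normalised CPM were computed. Tests used edgeR 4.0.16 in R 4.3.3 (default low-count filter with minimum count 10 and minimum total 15, robust quasi-likelihood fit of 13 libraries by group, two-sided, Benjamini-Hochberg threshold 0.05). SE was the absolute log2 fold change divided by the square root of F. Single genes were also compared by exact two-sided permutation of normalised CPM, where 4 against 3 libraries cannot go below 0.0286. The fit was also run on simulated counts, the outcome of which is not reported here. Alternatives were RLE and TMMwsp factors, scaling without mitochondrial genes, no and a stricter filter, only the groups compared, DESeq2 1.42.0, limma 3.58.1 voom, the replicate number as a block and leaving out each library; leaving out Shal RNAi 1 and 3 together, coding length, trended dispersions, TMM-scaled bounds for Vha100-2 and mean paralogue shares without each library were added after seeing the data. The members, the related gene lists and the marker lists were chosen with earlier results of these data known. Named in each comparison were the genes that passed and otherwise the 3 of lowest p in each direction; those without overlap between groups were added after their values were seen. Depth was 3783100 to 9319116 counts per library. A search of promoters for regulator motifs was planned and not run.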

Additional observations from a re-analysis of the deposited data

Results flagged for a closer look

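Of 26 measures examined in the 4 libraries labelled Notch RNAi, 4 had 1 library farther from the rest than Dixon's critical value for 4 samples allows, and chance alone gives such a gap in about 1 of 20 groups (5%). All 4 were Notch RNAi 4. Its Vha68-2 level was 139.02 normalised CPM, against 0.125 to 18.8 in the other Notch RNAi libraries. Its Vha14-1 level was 182.44 normalised CPM, against 602 to 656, and its VhaM9.7-a level was 158.91 normalised CPM, against 910.4 to 1019.8. Within subunit e, VhaM9.7-a made up 56.25% there, against 80.4% to 84.4% in the others. This library also had the highest sum of glia markers (1036 CPM), the lowest VGlut (401 CPM) and the highest TMM factor (1.41), whose part in these values was not tested.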

How the results depend on the processing

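No V-ATPase gene passed in any comparison under any edgeR or limma setting. DESeq2 called 1 in Shal RNAi against Control and 1 in Notch+Shal RNAi against Shal RNAi, Vha100-2 in both. The count of all genes called, 0 in every comparison of the report, did depend on the settings. In Shal RNAi against Control it was 26 without the low-count filter, 23 with only these groups, 309 with DESeq2 and 0 to 146 on leaving out 1 library (146 without Shal RNAi 2). In Notch RNAi against Control it was 2 with TMMwsp factors, 1 without the filter, 32 with DESeq2, 1 with the replicate block and 0 to 2 on leaving out a library. For Notch+Shal RNAi against Control it was 1 without the filter, 24 with DESeq2 and 0 to 1 on leaving out a library. For Notch+Shal RNAi against Shal RNAi it was 4 without the filter, 308 with DESeq2, 1 with the replicate block and 0 to 26 on leaving out a library (26 without Shal RNAi 2). For Notch+Shal RNAi against Notch RNAi it was 1 without the filter, 33 with DESeq2 and 0 to 2 on leaving out a library (2 without Notch+Shal RNAi 2). For the interaction it was 118 with DESeq2 and 9 with the replicate block. The cause was not tested.

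Median log2 fold changes of the V-ATPase genes tested stayed within 1 SD of library medians (0.54) under all settings, from -0.35 to 0.01 in Shal RNAi against Control, -0.40 to -0.09 in Notch RNAi, and -0.30 to 0.11 in Notch+Shal RNAi. Of 37 named gene results, 8 changed sign under some setting and 1 (Vha36-3) reached 0. On leaving out a library, the ranges were -1.0 to 0.0555 for Vha55 in Notch RNAi against Control, -0.86 to 1.75 for Vha100-1 and -0.35 to 1.34 for VhaAC45 in Notch+Shal RNAi against Control, 0 to 7.55 for Vha36-3 in Notch+Shal RNAi against Shal RNAi, and in Notch+Shal RNAi against Notch RNAi -0.44 to 1.52 for Vha68-1, -0.17 to 1.29 for Vha55, -1.29 to 1.20 for Vha100-1 (-0.0125 with limma voom) and -0.62 to 0.35 for VhaAC45RP. Vha13 in the interaction ranged from -0.50 to 0.18, the upper value without Shal RNAi 1 and 3. The stricter filter removed Vha100-2 and left 17 of the 19 genes. The fit of only the groups compared also left 17 in Shal RNAi against Control, without Vha100-2, and 18 in Notch+Shal RNAi against Control and against Shal RNAi.

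A weak pairing of libraries by replicate number was neither shown nor excluded. Correlations of same-numbered libraries' deviations were -0.199 to 0.214, with 8 of 18 over 0.1. Of 12 libraries, 6 correlated best with their own number. With the replicate block, 0 V-ATPase genes passed in every comparison. With 3 or 4 libraries a group and a spread this wide, moderate differences cannot be told from no difference.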

Other observations

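ATP6AP2, the prorenin receptor homologue and a further accessory protein of the pump, lies outside the symbol rule. It had 112, 504.1 and 138 CPM in libraries labelled Shal RNAi, 297, 677, 440.1 and 601 CPM with Notch RNAi and 592, 743 and 179 CPM with Notch+Shal RNAi, against 502, 619 and 491 CPM in Control, and in Shal RNAi against Control its log2 fold change was -0.63 (SE 0.61, edgeR adjusted p = 0.667). Its 4 lowest libraries were Notch RNAi 1, Notch+Shal RNAi 3, and Shal RNAi 1 and 3. The same 4 libraries were the lowest for VhaAC45RP, at 107 to 394 CPM, for VhaAC39-1, at 50.04 to 207 CPM, and for Vha26, at 292 to 376 CPM. These genes were set together after their values were seen, the 4 libraries belong to 3 groups, and no test was made of the pattern.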
